A study of Mus musculus with 8 samples.

Results

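Expression of 8 genes that carry the hepatocyte growth factor (HGF) and epidermal growth factor (EGF) receptor signals of the regenerating liver was examined in whole livers of 8 mice after bile duct ligation. The genes were Hgf, Hgfac and Met of the HGF pathway, and Tgfa, Hbegf, Areg, Egfr and Errfi1 of the EGF receptor pathway. They were selected by gene name from the 53816 genes listed in each library, and each name matched a single gene. Of the 8 mice, 4 were wild-type controls and 4 were labelled as overexpressing Myc in endothelial cells, the genotype label naming liver sinusoidal endothelial cells. All 8 livers came from ligated animals, so no unligated baseline enters the values. The sources used here give no age, sex, strain or time after surgery, nor the promoter that drives Myc. Values are in TPM, the authors' unit of transcript abundance, which corrects for transcript length and library size. In whole tissue, fewer cells of a type and less RNA per cell cannot be told apart.

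HGF is secreted by mesenchymal and endothelial cells of the liver as an inactive single chain and is cut into its active form by proteases such as the HGF activator encoded by Hgfac. It then binds MET, a receptor tyrosine kinase of hepatocytes and biliary cells. The EGF receptor EGFR, abundant on hepatocytes, is bound by ligands including transforming growth factor alpha (Tgfa), heparin-binding EGF-like growth factor (Hbegf) and amphiregulin (Areg), which are made as membrane precursors and shed. Errfi1 encodes an inhibitor that binds the kinase domain of active EGFR and is itself induced by growth factor signalling. Both receptors drive hepatocyte survival and division after injury.

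Each library held between 5.29 and 6.74 Gb of aligned bases, as computed from the deposited coverage. Hepatocyte markers summed to 73211 to 134901 TPM among controls and to 76085 to 114032 TPM among Myc-labelled livers, with all 10 listed markers above 0 in every library. Sinusoidal endothelial markers were also all above 0, and had sums of 155 to 225 and 116 to 211 TPM. The level of Myc did not follow its label, with 89.2 to 554 TPM among controls and 25.6 to 356 TPM among Myc-labelled livers, the lowest being Myc-labelled replicate 3. Its log2 difference was -0.45 ± 0.95 (SE; limma adjusted p = 1.0), and 0.43 without Myc-labelled replicate 3. That level is of all liver cells together, and whether an introduced Myc is counted under this gene is not known. It therefore cannot show whether Myc was raised in endothelial cells. The libraries are called Myc-labelled, and each direction below rests on those labels.

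Positions are those of mm10, as the files give them. Hgf (ENSMUSG00000028864.7, chromosome 5, 16553495 to 16620152), Hgfac (ENSMUSG00000029102.9, chromosome 5, 35041509 to 35048461) and Areg (ENSMUSG00000029378.5, chromosome 5, 91139599 to 91148432) share chromosome 5. Met (ENSMUSG00000009376.15, chromosome 6, 17463800 to 17573980) and Tgfa (ENSMUSG00000029999.14, chromosome 6, 86195223 to 86275719) share chromosome 6. Errfi1 (ENSMUSG00000028967.10) lies on chromosome 4, 150853919 to 150868892. Egfr (ENSMUSG00000020122.16) lies on chromosome 11, 16752203 to 16918158, and Hbegf (ENSMUSG00000024486.6) is placed with its values below. Genes listed within the same bounds in GENCODE M21 had mean levels of at most 0.546 TPM, which was the antisense 1700045H11Rik at Errfi1.

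Promoter sequences from RefSeq (GRCm38.p6) were found for 7 of the 8 genes, Hbegf being without one in the table used. Each window of 250 bases before and 50 after a start was searched on both strands for the cyclic AMP response element TGACGTCA, the AP-1 site TGANTCA, the E-box CACGTG that Myc and Max can bind, and the TATA box TATAAA. None of these motifs contains another. The E-box was found in 7.15% of all 32851 windows, the AP-1 site in 7.81%, the response element in 1.79% and the TATA box in 13.6%. Among the 9 windows of these genes the E-box occurred only at Met, at position -126, with an AP-1 site at -54. The response element followed by a TATA box occurred at Areg, at positions -61 and -31 from the start, and at the downstream of the 2 Errfi1 starts. The share of all windows that hold both in this order was not computed, so nothing is read from the shared layout. The windows at Met and at the downstream Errfi1 start overlap annotated exons. The 4 stretches below show the motif matches, with motif letters in capitals. Hgf, Hgfac, Egfr and Tgfa had none of the 4 motifs in their windows, which says only that these letters are not there.
Areg, chr5:91139449-91139598, plus strand: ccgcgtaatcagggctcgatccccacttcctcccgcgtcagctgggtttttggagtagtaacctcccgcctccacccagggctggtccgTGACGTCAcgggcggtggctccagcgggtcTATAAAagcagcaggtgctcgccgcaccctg
Errfi1, chr4:150855019-150855047, plus strand: TGACGTCAcgttgtcgctcaccgTATAAA
Met E-box, chr6:17463819-17463848, plus strand: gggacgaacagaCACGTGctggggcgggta
Met AP-1 site, chr6:17463891-17463920, plus strand: ctgttgcccggcTGAGTCAcgggccgggca

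No difference between the groups passed the test for any of the 8 genes. At an adjusted p under 0.05 limma called 0 of the 7 genes that reached a mean of 1 TPM, and 0% of the 13055 genes tested overall. At an unadjusted p under 0.05 it called 0 of the 7, against 1.86% of all tested genes. In none of the 7 did all values of one group lie above the other, against 1.26% of all tested genes. Areg, below that mean, was tested without the filter and did not pass either. Errors of means are SDs over the 4 livers of a group. Log2 differences, Myc-labelled minus control, carry SEs and were taken on log2(TPM + 1), so those of low genes are understated. Nothing in the sources says whether litters or cages were shared, so p-values refer only to spread between these livers. In the limma SEs, intervals and p-values, each gene's own spread is combined with a spread fitted over all tested genes.

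**Figure D1:**
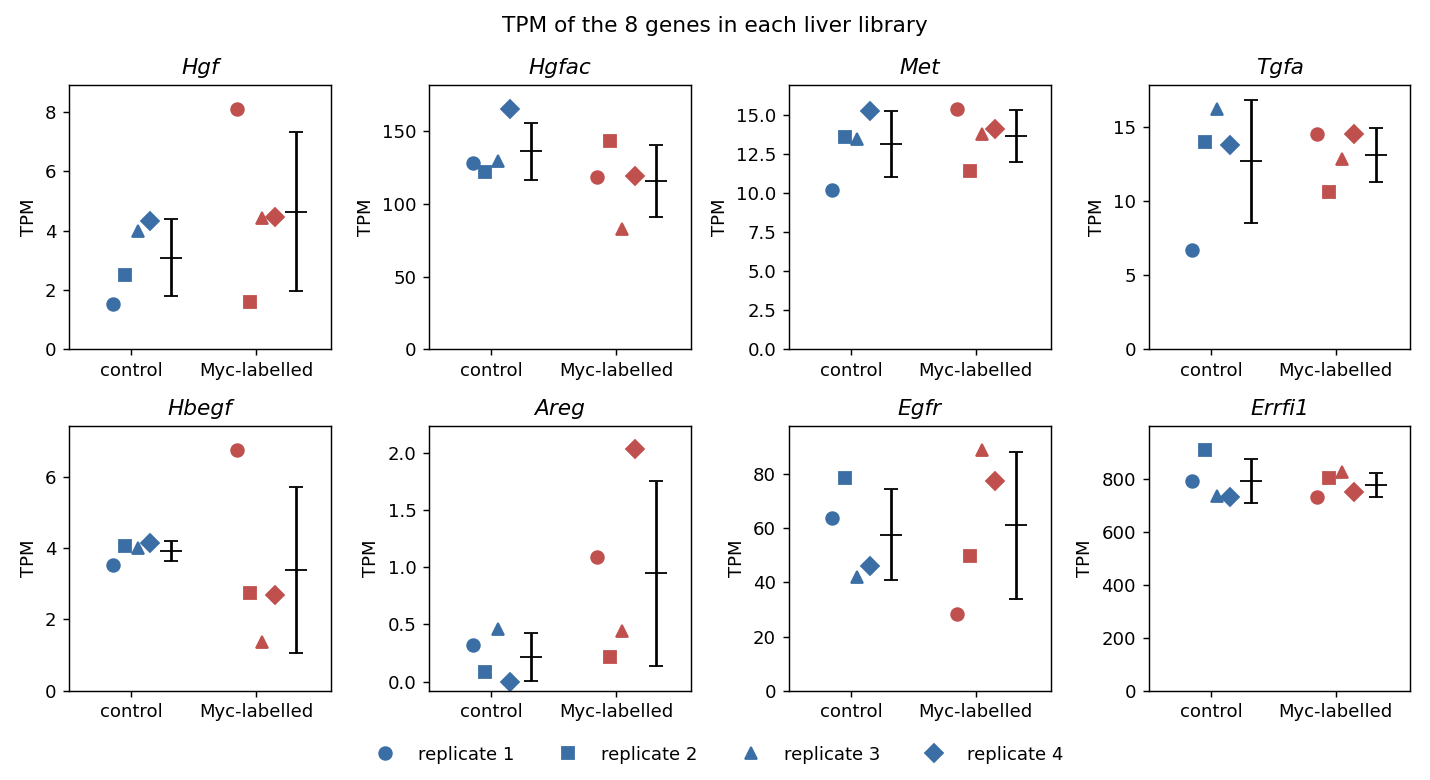
TPM of each gene (vertical axes, linear, in TPM) in the 4 control and 4 Myc-labelled libraries; symbols mark replicate numbers and black bars the group mean ± SD. The groups overlap in every panel, and the widest relative spread among genes above 1 TPM is that of Hgf, from 1.54 to 8.09 TPM.

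Hgf, the ligand of MET, was a low transcript of whole liver. Its levels were 1.54, 2.51, 3.99 and 4.32 TPM in control replicates 1 to 4 and 8.09, 1.58, 4.42 and 4.45 TPM in Myc-labelled replicates 1 to 4. Of the Myc-labelled libraries, 3 lay above every control and replicate 2 lay beside the lowest control, so that the groups overlapped. The log2 difference was 0.39 ± 0.37 (95% interval -0.43 to 1.20; limma adjusted p = 1.0). Leaving out control replicate 1 gave 0.18, leaving out Myc-labelled replicate 1 gave 0.11 and leaving out Myc-labelled replicate 2 gave 0.72. With array weights, of which Myc-labelled replicate 2 received the highest (3.32), it was -0.28.

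Hgfac, the secreted protease that activates HGF and a product of hepatocytes, was abundant. Its levels were 128, 122, 129 and 165 TPM in control replicates 1 to 4 and 118, 143, 82.4 and 119 TPM in Myc-labelled replicates 1 to 4. Here 3 Myc-labelled libraries lay below every control and replicate 2 lay above 3 of the controls. The means were 136 ± 19.7 TPM for control and 116 ± 25 TPM for Myc-labelled livers, a log2 difference of -0.25 ± 0.20 (95% interval -0.70 to 0.19; limma adjusted p = 1.0). When control replicate 4 was left out it was -0.16, and when Myc-labelled replicate 3 was left out -0.10. Without Myc-labelled replicate 2, the library that made the groups overlap, the groups overlapped neither for Hgf, then higher, nor for Hgfac, then lower by a log2 difference of -0.36. Under that omission 2.24% of all tested genes were higher without overlap and 0.827% lower.

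Met, the HGF receptor, varied little. It measured 10.2, 13.6, 13.5 and 15.3 TPM in control replicates 1 to 4 and 15.4, 11.4, 13.8 and 14.1 TPM in Myc-labelled replicates 1 to 4. The highest value exceeded the lowest 1.5-fold, and both groups spanned nearly the same range. Its means of 13.2 ± 2.13 and 13.7 ± 1.68 TPM gave a log2 difference of 0.06 ± 0.17 (95% interval -0.31 to 0.43; limma adjusted p = 1.0).

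Among the EGFR ligands, Tgfa was the most abundant on the TPM scale. It measured 6.68, 14, 16.2 and 13.8 TPM in control replicates 1 to 4 and 14.5, 10.6, 12.8 and 14.5 TPM in Myc-labelled replicates 1 to 4. Control replicate 1 was the lowest library, and the Myc-labelled values all lay within the control range. The log2 difference was 0.10 ± 0.24 (95% interval -0.43 to 0.63; limma adjusted p = 1.0), and -0.16 without control replicate 1.

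Hbegf (chromosome 18, 36504927 to 36515805) encodes a ligand that binds both EGFR and ERBB4, and its control values lay close together. They were 3.51, 4.05, 3.99 and 4.14 TPM in control replicates 1 to 4, against 6.74, 2.73, 1.36 and 2.68 TPM in Myc-labelled replicates 1 to 4. All 4 Myc-labelled values lay outside the control range, 1 above it and 3 below. Their SDs were 0.282 TPM for control and 2.33 TPM for Myc-labelled livers. A difference in spread was not tested. The log2 difference in level was -0.30 ± 0.31 (95% interval -0.98 to 0.37; limma adjusted p = 1.0). It was -0.05 when Myc-labelled replicate 3 was left out and -0.62 when replicate 1 was. In the latter case the groups did not overlap, Hbegf being lower, as were 1.82% of all tested genes.

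Areg, which injured epithelium and immune cells can produce, was the lowest of the 8 genes on the TPM scale. It was listed at 0.317, 0.0806, 0.456 and 0 TPM in control replicates 1 to 4 and at 1.09, 0.216, 0.443 and 2.03 TPM in Myc-labelled replicates 1 to 4. Myc-labelled replicates 1 and 4 lay above every control, and the other two lay within the control range. The log2 difference without a filter was 0.61 ± 0.28 (95% interval -0.03 to 1.24; limma adjusted p = 0.996), at an unadjusted p of 0.0599 with limma and 0.143 by exact permutation of the labels (two-sided, n = 4 per group, smallest possible 0.0286). On coverage per aligned base Areg stood at 3.36 and 6.41 in Myc-labelled replicates 1 and 4, and at 0 to 1.44 in the other libraries. In Myc-labelled replicate 4 it was then above Hbegf (4.2). The file gives no read counts, so no counting interval can be set on these values.

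Summed, the 3 ligands came to 10.5 to 20.7 TPM per control liver and 13.6 to 22.3 TPM per Myc-labelled liver. On the TPM scale Tgfa made up 63.6% to 87.6% of that sum over the 8 livers and exceeded Hbegf in 8 of 8. On coverage per aligned base its share was 37.7% to 68.5%, and Hbegf exceeded Tgfa in control replicate 1 and Myc-labelled replicate 1. The difference of the sums between the groups was smaller than the spread between livers (16.8 ± 4.37 against 17.4 ± 4.07 TPM, n = 4 each, exact permutation p = 0.83, two-sided).

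Egfr, the receptor of these ligands, was among the more variable of the 8 genes. It was measured at 63.8, 78.7, 42.1 and 46.1 TPM in control replicates 1 to 4, and at 28.3, 49.7, 88.9 and 77.4 TPM in Myc-labelled replicates 1 to 4. Both the lowest and the highest library were Myc-labelled, and they differed 3.14-fold. The group means were 57.7 ± 16.9 and 61.1 ± 27.3 TPM, with a log2 difference whose 95% interval ran from -0.76 to 0.76 (limma adjusted p = 1.0). Leaving out Myc-labelled replicate 1 moved the log2 difference to 0.32 and leaving out Myc-labelled replicate 3 moved it to -0.22.

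Errfi1, the feedback inhibitor of EGFR, was the most abundant of the 8 and the steadiest. Its levels were 792, 908, 736 and 730 TPM in control replicates 1 to 4 and 731, 802, 826 and 750 TPM in Myc-labelled replicates 1 to 4. The highest library exceeded the lowest 1.24-fold. Its SD over the 8 libraries was 0.11 log2 units, against a median of 0.29 over all tested genes, and only 0.728% of tested genes had a smaller one. SDs on this scale depend on the level, so this places the gene among all genes and not among genes of equal level. The log2 difference was -0.02 ± 0.17 (95% interval -0.39 to 0.34; limma adjusted p = 1.0).

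**Figure D2:**
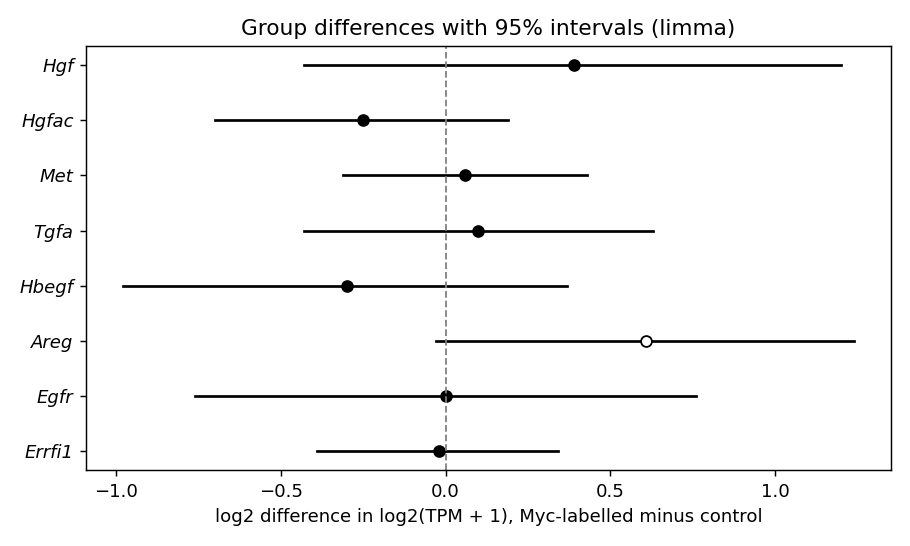
Log2 difference of each gene (Myc-labelled minus control, horizontal axis, on the log2(TPM + 1) scale) with its 95% limma interval; the open circle is Areg, fitted without the filter on low values. All 8 intervals include 0, the narrowest being those of Met and Errfi1.

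Ordered by mean TPM over the 8 libraries, Errfi1 (784 TPM) was followed by Hgfac (126 TPM), Egfr (59.4 TPM), Met (13.4 TPM), Tgfa (12.9 TPM), Hgf (3.86 TPM), Hbegf (3.65 TPM) and Areg (0.58 TPM). The ranges of Errfi1 and Hgfac did not overlap, nor did those of Egfr and Met. Met exceeded Tgfa in 5 of 8 libraries and Hgf exceeded Hbegf in 4 of 8, so the order within these pairs lay within the spread. The order depended in part on the measure. On the authors' coverage per base, adjusted to equal depth, Met averaged 36.6 and Tgfa 7.43, and their ranges did not overlap, from 29.5 to 41.5 for Met and from 4.05 to 9.11 for Tgfa. Hbegf (5.54) then stood above Hgf (4.89). TPM per unit of this coverage ran from 0.32 for Areg to 1.73 for Tgfa. For Egfr that ratio itself ranged from 0.378 to 0.517 between libraries, and the log2 difference of Egfr was 0.16 on the coverage scale.

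Co-variation was measured for all 28 pairs of the 8 genes over the 8 livers, on log2(TPM + 1). No pair passed after adjustment over the 28, the smallest adjusted p being 0.066, and 4 pairs had an unadjusted exact p of at most 0.05. Of the 28 correlations, 12 were positive and 16 negative.

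**Figure D3:**
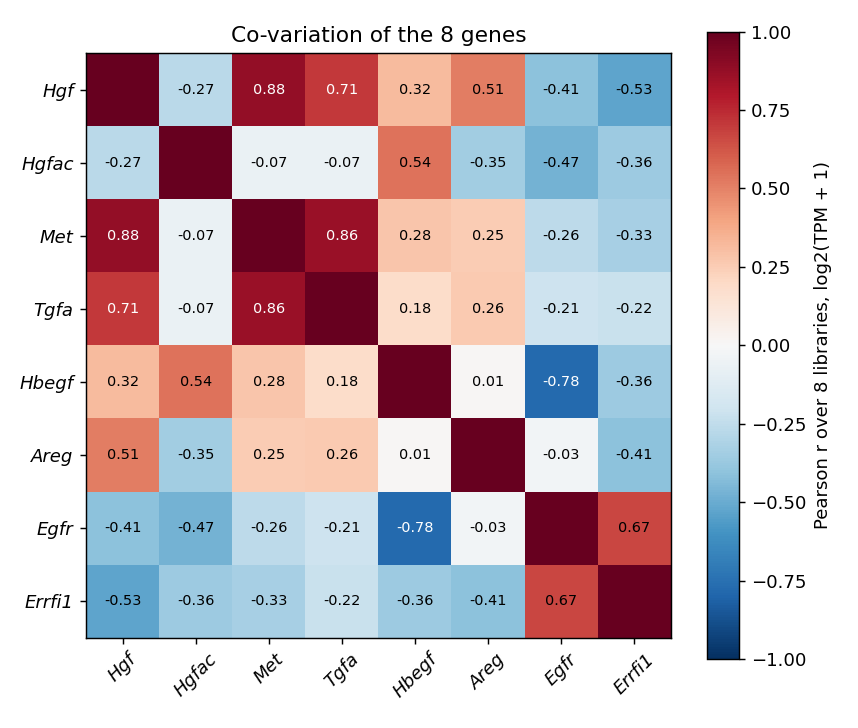
Pearson r of log2(TPM + 1) over the 8 libraries for each pair of genes (rows and columns), with colour from -1 (blue) to 1 (red). Hgf, Met and Tgfa share positive values of 0.71 to 0.88, and Egfr is negative against Hbegf at -0.78.

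The ligand Hgf and its receptor Met gave the highest value, with r = 0.88 and rho = 0.90 (exact permutation p = 0.00236 and 0.00456, adjusted 0.066 and 0.128, n = 8). With group means subtracted r was 0.89. Without control replicate 1 and Myc-labelled replicate 2, the libraries lowest in both genes, r was 0.70 over 6 (exact permutation p = 0.0847). The value also moved with the scaling, to 0.68 under median-of-ratios scaling and 0.90 with FPKM, where its exact permutation p adjusted over the 28 pairs was 0.41 and 0.0167.

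Met and Tgfa gave r = 0.86 and rho = 0.48 (exact permutation p = 0.0114 and 0.243, adjusted 0.159 and 0.619, n = 8). Without the same pair of libraries r was -0.19, so the relation rested on them. Hgf and Tgfa, named because their unadjusted p was also under the threshold, gave r = 0.71 (exact permutation p = 0.0451, adjusted 0.316, n = 8) and rho = 0.60 (exact permutation p = 0.132, adjusted 0.532). Without those libraries r was 0.05.

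Egfr and its ligand Hbegf ran in opposite directions, with r = -0.78 and rho = -0.69 (exact permutation p = 0.0203 and 0.0694, adjusted 0.19 and 0.532, n = 8). Myc-labelled replicate 1 had the lowest Egfr and the highest Hbegf of the 8 livers, and Myc-labelled replicate 3 the reverse. Without those libraries r was -0.28, so this relation also rested on them. With group means subtracted it was -0.83.

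Myc itself, which ranged 21.7-fold over the 8 livers, was compared with each gene in a family of 8 correlations. None had an unadjusted exact p of at most 0.05, and the smallest adjusted p was 0.521. The 3 with the smallest p were Hbegf (r = 0.62, rho = 0.19), Egfr (r = -0.53, rho = -0.67) and Hgfac (r = 0.52, rho = 0.31), with exact permutation p = 0.121, 0.182 and 0.195 for r and 0.665, 0.0831 and 0.462 for rho (n = 8). For rho the adjusted p was 0.665 in each case. Without Myc-labelled replicate 3 and control replicate 4, the libraries lowest in Myc, r was 0.16 for Hbegf, -0.69 for Egfr and 0.39 for Hgfac. Without Myc-labelled replicate 3 alone the value for Hgfac was -0.59, and without control replicate 4 alone it was 0.93.

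Since the 8 genes come from different cells, each was also set against the mean log2 level of 9 marker lists, 72 correlations in all. None passed after adjustment, the smallest adjusted p being 0.155, and 5 of the 72 had an unadjusted exact p of at most 0.05. Among those 5, Kupffer cell markers against Hgfac gave r = 0.75 and rho = 0.52 (exact permutation p = 0.0349 and 0.197, adjusted 0.496 and 0.644, n = 8). Without Myc-labelled replicate 3 and control replicate 4 that r was -0.14. Stellate and fibroblast markers, of mesenchymal cells that make matrix, had the smallest p, against Egfr: r = -0.89 and rho = -0.93 (exact permutation p = 0.00216 and 0.00223, adjusted 0.155 and 0.161, n = 8). Without Myc-labelled replicate 1 and control replicate 2, r was -0.80 (exact permutation p = 0.0306, n = 6), and with group means subtracted it was -0.92. The same markers against Errfi1 gave r = -0.84 and rho = -0.90 (exact permutation p = 0.0101 and 0.00456, adjusted 0.268 and 0.164, n = 8), and r = -0.85 without those libraries. Mesothelial markers, of the cells that cover the liver surface, gave r = 0.83 and rho = 0.79 against Hbegf (exact permutation p = 0.0112 and 0.0279, adjusted 0.268 and 0.402, n = 8), and r = 0.94 without Myc-labelled replicate 1 and control replicate 1. The relation was not particular to that list. Against Hbegf, Kupffer cell markers gave r = 0.73 and rho = 0.83 (exact permutation p = 0.0396 and 0.0154, adjusted 0.496 and 0.277, n = 8). Sinusoidal endothelial markers gave r = 0.67 and rho = 0.83 (exact permutation p = 0.0587 and 0.0154, adjusted 0.496 and 0.277, n = 8). Egfr was also negative against mesothelial (r = -0.69), cholangiocyte (r = -0.68) and sinusoidal endothelial markers (r = -0.58), with exact permutation p = 0.0582, 0.0655 and 0.128 (n = 8). Against neutrophil and erythroid markers it was positive (r = 0.12 and 0.35). Errfi1 gave r = -0.64 against cholangiocyte markers (exact permutation p = 0.0849, n = 8), and r = 0.03 without Myc-labelled replicate 3 and control replicate 2.

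The mean log2 level of the stellate list was 3.71, 2.99, 3.88 and 4.15 in control replicates 1 to 4 and 4.85, 3.78, 3.30 and 3.76 in Myc-labelled replicates 1 to 4. It was thus highest in the liver with the lowest Egfr. All 12 stellate markers were above 0 in every library, and their sums were 266 to 479 TPM among controls and 305 to 780 TPM among Myc-labelled livers. All 6 mesothelial markers were above 0 as well, with sums of 15.5 to 24.9 TPM among controls and 8.55 to 38.5 TPM among Myc-labelled livers. The part of any of the listed cell types in the values of Egfr, Errfi1, Hbegf and Hgfac was not tested. Hgf, itself a product of stellate cells, gave r = 0.58 against the stellate list (exact permutation p = 0.126, adjusted 0.578, n = 8). Without Myc-labelled replicate 1 and control replicate 2 that r was 0.03.

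**Figure D4:**
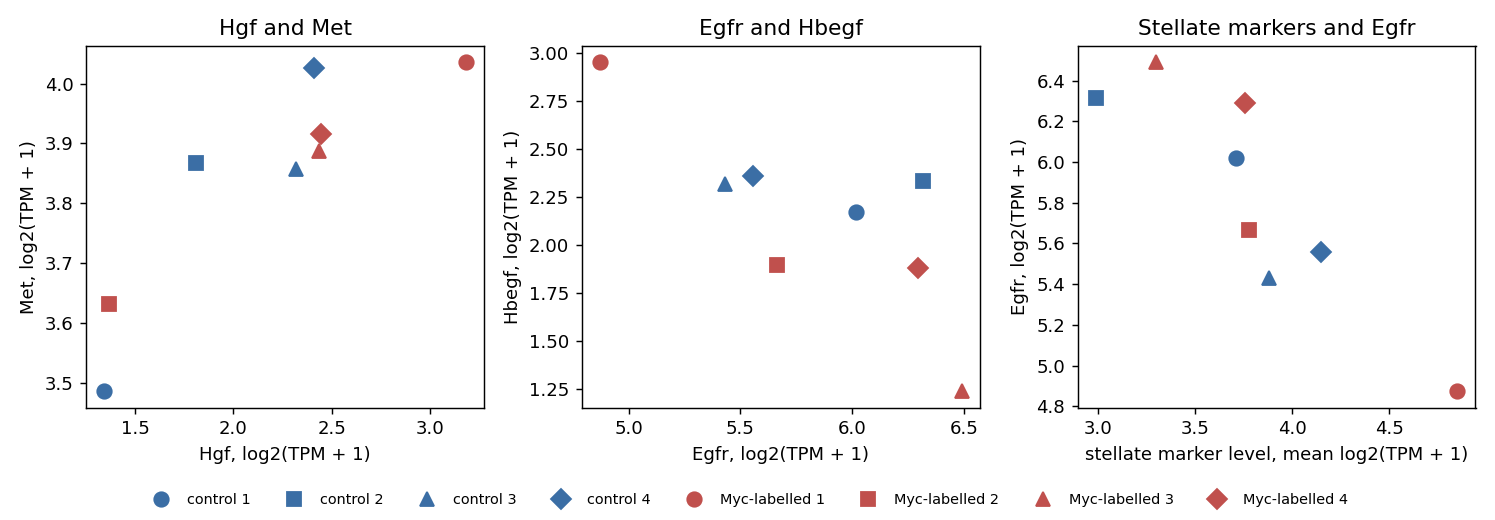
Met against Hgf, Hbegf against Egfr, and Egfr against the mean stellate marker level, all as log2(TPM + 1); each point is 1 library, blue for control and red for Myc-labelled, with symbols for replicate numbers. Myc-labelled replicate 1 lies at an extreme in each panel, and control replicate 1 and Myc-labelled replicate 2 form the low end of the Hgf and Met panel.

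The genes whose pattern over the 8 livers was most like each of the 7 genes above the filter were taken from the 8358 that averaged 5 TPM or more. Each r was picked as among the highest of that many and is a description only. Nearest to Hgf were Slc25a37, Dync1li1 and Mical2 (r = 0.975, 0.961 and 0.943), and nearest to Met were Csnk2a3, Eif2ak2 and Jak1 (0.977, 0.974 and 0.959). Hgfac was nearest to Dmac2, Gys2 and Apeh (0.979, 0.961 and 0.958). For Tgfa these were Myh9, Ndst1 and Tcf20 (0.976, 0.976 and 0.974), and for Hbegf Fgd2, Fcgr3 and Slc35d1 (0.975, 0.974 and 0.973). Egfr lay nearest to Cpb2, Slc41a3 and Isyna1 (0.948, 0.941 and 0.906), and Errfi1 to Nnmt, Bmper and Retreg1 (0.948, 0.928 and 0.919).

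Of 72 other genes of the 2 pathways, 61 reached the filter and 0 passed the threshold with limma, as against 0% of all tested genes. At an unadjusted p under 0.05 with limma there were 2 of the 61, against 1.86% of all tested genes. By sign alone 45 stood above the controls and 16 below in Myc-labelled livers, where 58% of all tested genes were higher. That split was 38 to 23 under median-of-ratios scaling, where 49% of all genes were higher. It was 31 to 30 with array weights (57.3% of all genes higher), 34 to 27 without control replicate 1 (54.5%) and 36 to 25 without Myc-labelled replicate 1 (41.6%). The split was 47 to 14 with FPKM (63.3%) and without control replicate 4 (60.2%), and 49 to 12 without control replicate 2 (58%). The median log2 difference was 0.10 over the 61 genes and 0.037 over all tested genes.

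Other EGF-family ligands reached the filter in 3 of 7 cases, 2 higher and 1 lower, none passing. Betacellulin (Btc) measured 7.26 ± 3.64 against 8.68 ± 1.69 TPM and neuregulin 1 (Nrg1) 2.32 ± 1.46 against 3.1 ± 1.83 TPM, controls first here and below. Nrg4, a neuregulin that binds ERBB4, measured 19 ± 7.23 against 15.6 ± 1.92 TPM and was thus above Tgfa on the TPM scale. Egf itself was listed at 0.287 to 0.973 TPM. The other receptors and the HGF-like ligand reached the filter in 3 of 5 cases, 2 higher and 1 lower (1 and 2 under median-of-ratios scaling), none passing. Erbb3, the kinase-impaired partner of EGFR, stood at 50.1 ± 5.83 against 39.8 ± 7.37 TPM (log2 difference -0.33 ± 0.18, limma adjusted p = 1.0). Erbb2 and Erbb4 were below the filter. Mst1, the HGF-like ligand made by hepatocytes, stood at 138 ± 27.9 against 138 ± 21.1 TPM, and its receptor Mst1r at 1.25 ± 0.749 against 1.25 ± 0.543 TPM.

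Proteases that activate the ligands, and their inhibitors, gave 10 higher and 4 lower of 14 tested, none passing. The split was 8 to 6 under median-of-ratios scaling and with array weights, where 49% and 57.3% of all tested genes were higher. It was 7 to 7 without control replicate 1 (54.5%) and without Myc-labelled replicate 1 (41.6%). Hepsin (Hpn), a membrane protease of hepatocytes that can activate HGF, stood at 490 ± 30.3 against 414 ± 31.5 TPM. Coagulation factor XI (F11) measured 47.6 ± 15 against 58.6 ± 7.88 TPM and the plasminogen activator Plat 2.35 ± 0.582 against 3.47 ± 2.23 TPM. Receptor adaptors and co-receptors gave 10 higher and 3 lower of 13 tested, none passing. Their split was 8 to 5 under median-of-ratios scaling (49% of all tested genes higher) and 6 to 7 with array weights (57.3%). Without control replicate 2 (58%) it was 11 to 2. The plexins Plxnb2 and Plxnb1, which can associate with MET, stood at 55.7 ± 7.42 against 47 ± 2.47 TPM and at 21.2 ± 8.59 against 16 ± 2.42 TPM. The Ras activator Sos1 stood at 5.71 ± 0.88 against 7.01 ± 1.38 TPM.

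Feedback inhibitors of the receptors and of ERK, the kinase both receptors activate, gave 11 higher and 4 lower of 15 tested, none passing. Their split was 8 to 7 with array weights (57.3% of all tested genes higher) and without Myc-labelled replicate 1 (41.6%). Without control replicate 2 (58%) it was 14 to 1. Dusp5, a nuclear phosphatase of ERK, had the smallest unadjusted p of these lists. It measured 1.35, 0.872, 2.41 and 1.32 TPM in control replicates 1 to 4 and 7.22, 2.46, 2.29 and 8.72 TPM in Myc-labelled replicates 1 to 4. Myc-labelled replicates 1 and 4 were the high ones, and the other 2 lay beside the highest control (log2 difference 1.18 ± 0.37, limma adjusted p = 1.0). Lrig3, a membrane protein of a family that restrains receptor kinases, was the 1 gene of the 61 whose groups did not overlap, against 1.26% of all tested genes. Controls spanned 3.81 to 4.44 TPM and Myc-labelled livers 1.98 to 3.77 TPM (log2 difference -0.33 ± 0.20, limma adjusted p = 1.0). Socs5 stood at 2.7 ± 0.789 against 3.79 ± 1.03 TPM.

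Early response targets of ERK gave 10 higher and 3 lower of 13 tested, none passing. The lean turned to 6 against 7 with array weights and without Myc-labelled replicate 4, where 57.3% and 56.5% of all tested genes were higher. It was 7 against 6 without control replicate 1 (54.5%). Without control replicate 4 (60.2%) or Myc-labelled replicate 3 (71.5%) it was 12 against 1. The AP-1 subunit Fosl1 was listed at 0, 0, 0.113 and 0.276 TPM in control replicates 1 to 4 and at 3.57, 0.36, 0.203 and 4.67 TPM in Myc-labelled replicates 1 to 4. Ier3, a stress and growth factor response gene, measured 5.6, 11.6, 11.1 and 6.7 TPM in control replicates 1 to 4 and 48.5, 8.94, 11 and 38.4 TPM in Myc-labelled replicates 1 to 4. As with Areg and Dusp5, the high values of Fosl1 and Ier3 were those of Myc-labelled replicates 1 and 4. The mean log2 level of 10 neutrophil markers was also highest in these livers, at 3.62 and 4.15, against 2.24 to 3.39 in the other 6. Of the 10, Csf3r, Cxcr2, Il1r2 and Mmp9 were highest in these livers. Control replicate 2 exceeded Myc-labelled replicate 1 for S100a8 (17 against 16.6 TPM), S100a9 (31.9 against 30 TPM), Retnlg (7.72 against 7.45 TPM) and Mmp8 (1.34 against 1.2 TPM). Summed, the 10 neutrophil markers gave 2990 to 6403 TPM among controls and 3830 to 6654 TPM among Myc-labelled livers. Nearly all of that sum was Lcn2, which injured hepatocytes also make and which was highest in Myc-labelled replicate 3 (6626 TPM), not in replicates 1 and 4 (4997 and 4924 TPM). Ly6g was at 0 in 5 of 8 libraries. Their part in these values was not tested. Fos, another AP-1 subunit, measured 6.16 ± 3.38 against 10.9 ± 8.12 TPM.

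**Figure D5:**
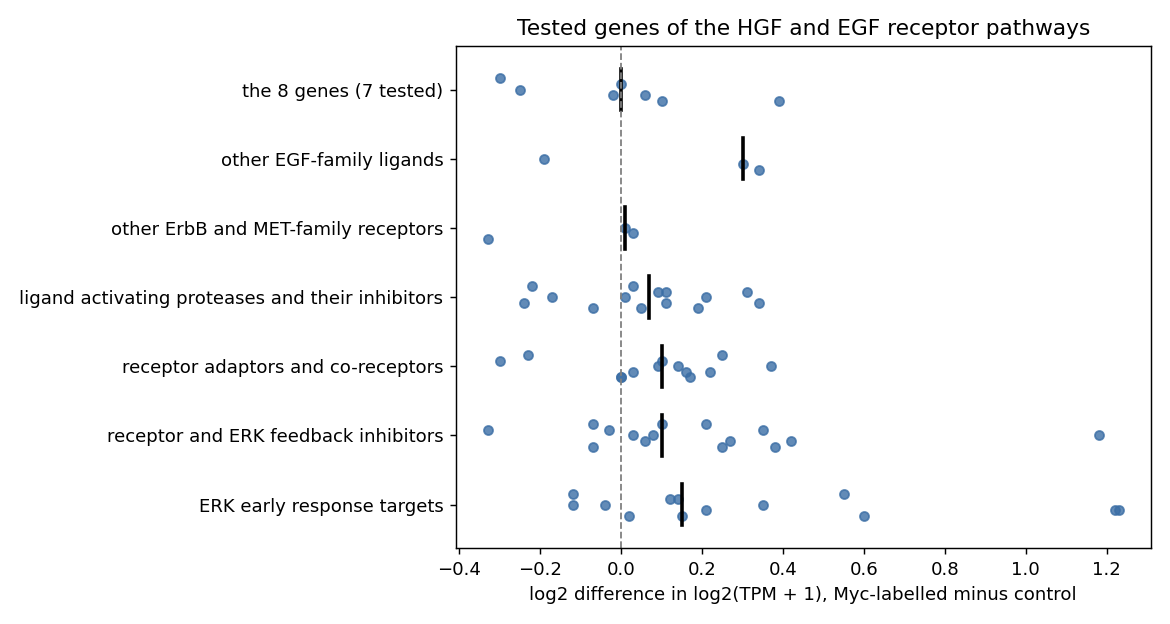
Log2 difference of each tested gene (dots; horizontal axis, Myc-labelled minus control on the log2(TPM + 1) scale) by list, with the list's median as a black bar; vertical offsets of the dots carry no meaning. Most genes lie within 0.4 of 0, and the dots beyond 1 are Dusp5, Fosl1 and Ier3, none past the threshold.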

How the data were processed

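RNA-seq libraries of 8 livers (4 control, 4 Myc-labelled by title and genotype label) were used. Per the labels' protocols, total RNA was extracted with a TRIzol reagent and the library kit was one for mRNA. The sources used here do not give the read strand. The submitters' processing notes name HISAT2, StringTie and mm10, with no versions. TPM, the main unit, and FPKM were deposited by the authors for 53816 gene IDs per library. Coverage, a signal not scaled for depth, was also deposited by the authors, per the file headers. Aligned bases were derived from the modal ratio of coverage to FPKM; no read counts were used, so depth per gene is unknown. Rows that repeat a gene ID (10 to 15 in each file) were added up. GENCODE M21 held 52928 of these IDs in the same version, 100% of them at identical coordinates.

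Group differences came from limma 3.58.1 in R 4.3.3 on log2(TPM + 1), with a trended, robust prior and two-sided tests. The fit held all 13055 genes that averaged 1 TPM or more, and p-values were adjusted by Benjamini-Hochberg with a threshold of 0.05. Areg fell below that mean and was fitted without the filter. The pipeline was tested on simulated data. Correlations used exact permutation of the 40320 pairings over 8 livers, two-sided, adjusted within families of 28, 8 and 72; group values used all 70 assignments. Computation used Python 3.11.15, pandas 2.3.3, numpy 2.4.6, scipy 1.17.1 and matplotlib 3.10.9.

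The members and lists were chosen with earlier results of these data known. The named genes are the 8 members, Myc, the up to 3 genes of smallest p per pathway list, the 3 nearest in pattern to each member above 1 TPM (excluding clone-type symbols), and, per correlation family without a pass, the 3 pairs of smallest p. Named beyond that rule after values were seen were Hgf and Tgfa, Egf, Erbb2 and Erbb4, and Hgf with the stellate list. So were Hbegf with the Kupffer cell and sinusoidal endothelial lists, and Hgfac with the Kupffer cell list. Egfr with the mesothelial, cholangiocyte, sinusoidal endothelial, neutrophil and erythroid lists, and Errfi1 with the cholangiocyte list, were also named in this way. As alternatives, pseudocounts of 0.1 and 5, other filters and scalings, FPKM, a plain variance model, array weights, a block on replicate number and omission of each library in turn were run. Coverage per aligned base, and all alternatives for the marker correlations, were added after seeing the data.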

Additional observations from a re-analysis of the deposited data

How the results depend on the processing

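The count of members and of pathway genes past the threshold was 0 under each of the 19 other settings, for limma over all genes; the count over all genes was 0 except with array weights, where it was 1, the noncoding Gm43305. With the replicate block it was 0 as well. The labels do not say whether replicate numbers pair the livers. Same-numbered deviations from the group means correlated at 0.128, -0.058, 0.065 and 0.070, and the block was used only as an alternative setting. Members with groups that do not overlap numbered 0, and 0 to 2 when one library was left out (1 of 7, Hbegf, when Myc-labelled replicate 1 is omitted, and 2 of 7, Hgf and Hgfac, when replicate 2 is; over all tested genes these omissions gave 2.91% and 3.06%, and the 8 omissions 2.25% to 5.43%).

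Hgfac and Hbegf kept their direction under every setting that gave them a value, from -0.36 to -0.09 and from -0.62 to -0.05. Signs of the other members and of Myc turned as follows, none past the threshold. With array weights the log2 difference was -0.28 for Hgf, -0.12 for Met, -0.17 for Tgfa, 0.0054 for Egfr, 0.02 for Errfi1 and 0.23 for Myc. Without control replicate 1 it was -0.05 for Met, -0.16 for Tgfa and 0.06 for Egfr. For Egfr it was 0.0059 with a pseudocount of 5, 0.0053 with quantile normalization, 0.03 with FPKM, 0.16 on coverage per aligned base, 0.16 without control replicate 2 and 0.05 without Myc-labelled replicate 2, and it ran from -0.22 to 0.32 over the omissions of single libraries. For Errfi1 it was 0.02 with quantile normalization, 0.0071 with FPKM, 0.006 on coverage per aligned base, 0.05 without control replicate 2 and 0.0073 without Myc-labelled replicate 1 (range over such omissions -0.06 to 0.05). For Met that range was -0.05 to 0.14, and for Myc -0.91 to 0.43, the latter without Myc-labelled replicate 3. The cause was not tested.

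Pairs of members past an adjusted p of 0.05 numbered 0, and 1, Hgf and Met, with a pseudocount of 0.1 (r = 0.90, exact permutation adjusted p = 0.0486), with FPKM (r = 0.90, adjusted p = 0.0167 by exact permutation) and on coverage per aligned base (r = 0.91, adjusted p = 0.0257 by exact permutation). Over the other settings that adjusted p ran from 0.0611 to 0.419. Correlations with Myc and with marker levels gave 0 passes under each setting run; r of Myc and Hgfac ran from -0.59 (Myc-labelled replicate 3 left out) to 0.93. Hgf and Hbegf have no value at a mean of at least 5 TPM, and Areg only without the filter. Coverage per base as deposited was at most 6.43 for Areg, and that of Hgf, adjusted for depth, was as low as 1.78, so depth limits both.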
